A study of Mus musculus with 3 samples.

Results

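The constant region genes of the antibody chains were followed cell by cell in dissociated mouse lung. The 9 genes were given by a rule that lists Ighm, Ighd, Igkc, Iglc1, Iglc2, Iglc3, Ighg2c, Igha and Jchain, out of 22954 genes in the deposited tables, and the same rule states that light chain levels in B cells differ between CONV and the other libraries. These levels chose the genes and are therefore given as a description. The study asked whether AsiDNA, a short DNA molecule that mimics double-strand breaks and acts as a decoy, changes the late response of the lung to radiation. Female wild-type (WT) C57BL6/J mice received 13 Gy to the thorax and their lungs were taken 5 months later. CONV was irradiated at a conventional dose rate, FLASH at an ultra-high dose rate, and CONV AsiDNA at the conventional rate, with AsiDNA given at 100 mg/kg per day on the 2 days before and at 200 mg/kg on the irradiation day. The methods give a general age of 8 to 9 weeks for mice entering experiments, and control libraries were not analysed here. Each condition is 1 library of 1 mouse, so mouse, library and treatment cannot be told apart and no test between conditions was possible. Intervals are at the 95% level by the exact Clopper-Pearson method and cover only how cells were sampled.

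An antibody is built from heavy chains, whose class is set by the constant gene in use, and from light chains of either the kappa or the lambda type. Naive B cells carry IgM and IgD, encoded by Ighm and Ighd, on their surface. After activation a B cell may switch to a constant gene further along chromosome 12, such as Ighg2c for IgG2c or Igha for IgA, and on becoming an antibody-secreting cell it raises its immunoglobulin transcripts and turns on Jchain, the joining chain of IgM and IgA polymers. A B cell as a rule keeps either kappa, from Igkc, or lambda, from one of Iglc1, Iglc2 and Iglc3. In the mouse lambda locus each constant gene lies next to its own joining segment, and Iglv1 as a rule joins the Iglc1 or Iglc3 unit while Iglv2 joins that of Iglc2.

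The first 300 coding bases of each lambda constant gene are shown because the near identity of Iglc2 and Iglc3 bears on how their counts can be read. They were taken from the GENCODE M21 transcripts (GRCm38), and all lie on the minus strand of chromosome 16. Iglc1 is at chr16:19061772-19062071, Iglc2 at chr16:19198554-19198853 and Iglc3 at chr16:19065382-19065681. Capitals mark, in Iglc1, the bases that differ from the aligned base of Iglc2, and in Iglc2 and Iglc3 the bases at which these genes differ from each other.
Iglc1: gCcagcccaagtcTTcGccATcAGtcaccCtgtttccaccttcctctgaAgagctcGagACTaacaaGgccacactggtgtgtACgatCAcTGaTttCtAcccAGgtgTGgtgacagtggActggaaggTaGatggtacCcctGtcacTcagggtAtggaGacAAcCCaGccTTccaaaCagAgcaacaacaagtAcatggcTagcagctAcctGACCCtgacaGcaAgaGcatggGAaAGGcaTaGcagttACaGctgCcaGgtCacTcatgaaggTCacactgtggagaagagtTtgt
Iglc2: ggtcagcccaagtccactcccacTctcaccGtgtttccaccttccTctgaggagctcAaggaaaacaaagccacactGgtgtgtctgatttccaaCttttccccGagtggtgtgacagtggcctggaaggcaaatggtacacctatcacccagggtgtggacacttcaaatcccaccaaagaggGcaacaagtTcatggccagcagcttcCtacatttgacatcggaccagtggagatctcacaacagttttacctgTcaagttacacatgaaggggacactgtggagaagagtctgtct
Iglc3: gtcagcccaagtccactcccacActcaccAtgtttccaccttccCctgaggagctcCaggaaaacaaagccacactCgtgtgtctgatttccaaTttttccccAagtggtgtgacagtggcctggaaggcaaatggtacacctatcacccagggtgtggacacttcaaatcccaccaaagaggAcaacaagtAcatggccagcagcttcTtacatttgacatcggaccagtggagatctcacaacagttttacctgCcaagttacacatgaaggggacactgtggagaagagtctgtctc
Iglc2 and Iglc3 differed at 11 of 314 aligned bases, an identity of 96.5%. Iglc1 shared 74.8% of its aligned bases with Iglc2 and 75.7% with Iglc3, and the coding sequence of Igkc shared 58.0% with Iglc1. The transcripts of Iglc2 and Iglc3 had 43 windows of 50 bases in common, out of 409 and 403, and none of 90 bases. Iglc1 had none of 50 bases in common with either. A short read inside such a shared window can thus fall equally on Iglc2 and Iglc3. The division of counts between these genes is uncertain to an extent that was not tested.

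The other members lie apart. Igkc occupies chr6:70726435-70726966 on the plus strand. Ighm lies at chr12:113418558-113422730, Ighd at chr12:113406604-113416324, Ighg2c at chr12:113285325-113288932 and Igha at chr12:113254830-113260236, all on the minus strand, and Jchain lies at chr5:88519809-88527891. The annotation gives all but Jchain, a protein-coding gene, as immunoglobulin constant genes.

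CONV had 6372 cells, CONV AsiDNA 6983 and FLASH 6267, with summed adjusted counts of 23908890, 26417388 and 23383510. An adjusted count is the whole number recovered from each deposited log value, and adjusted CPM is the number of adjusted counts of a gene per 1000000 adjusted counts of a group of cells. Cells were assigned by 8 markers of each of 12 types, none of them an immunoglobulin gene. The gate kept 1301 CONV, 1580 CONV AsiDNA and 1142 FLASH cells as B cells, with a median total of 2843, 2967 and 3048.5 adjusted counts. Cd79a, the signalling partner of surface immunoglobulin, was above 0 in 99.4%, 99.7% and 99.8% of them, and the T cell gene Cd3e and the alveolar gene Sftpc were listed at 0 in all of them. Of other lineage markers, the endothelial gene Pecam1 was above 0 in 22.5%, 27.8% and 25.1%, the myeloid gene Lyz2 in 0, 1 and 5 cells, and the neutrophil gene S100a8 in 1 cell of CONV AsiDNA. The median number of genes above 0 per B cell was 923, 1056.5 and 1074, lowest in CONV. Pairs of libraries shared 9 to 17 cell barcodes. Genes that most cells use were also listed at 0 in part of the B cells, and Actb was above 0 in 79.0% of those of CONV, so a 0 is read below only as listed at 0.

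Light chain transcripts were lower in the B cells of CONV than in those of both other libraries, for kappa as for lambda. For CONV the level of Igkc was 3310 adjusted CPM, for CONV AsiDNA it was 11216 and for FLASH 10658, so that the log2 ratio of CONV was -1.76 against CONV AsiDNA and -1.68 against FLASH. The latter libraries differed from each other by 0.07 on the same scale. Igkc was above 0 in 57.0% of CONV B cells (95% interval 54.2 to 59.7), in 94.3% of CONV AsiDNA B cells (93.0 to 95.4) and in 94.3% of FLASH B cells (92.8 to 95.6).

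Each lambda gene stood in the same order, with CONV lowest and CONV AsiDNA highest. Taking the libraries as CONV, CONV AsiDNA and FLASH in turn, Iglc1 had 234, 842 and 689 adjusted CPM and was above 0 in 6.76%, 36.5% and 31.8% of B cells. Iglc2 had 642, 1470 and 1109 adjusted CPM and was above 0 in 52.0%, 83.4% and 78.9%. Iglc3 had 279, 902 and 802 adjusted CPM and was above 0 in 34.4%, 79.9% and 78.4%. The log2 ratio of CONV over CONV AsiDNA was -1.80 for Iglc1, -1.18 for Iglc2 and -1.66 for Iglc3, and over FLASH it was -1.52, -0.78 and -1.49. Of the members, Iglc2 showed the widest difference between CONV AsiDNA and FLASH, a log2 ratio of 0.40.

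The heavy chain genes of naive B cells did not follow this pattern to the same extent. Ighm had 2257, 3496 and 3506 adjusted CPM in the same order, log2 ratios of -0.63 for CONV over either. It was above 0 in 88.4% of CONV B cells (86.5 to 90.1), 98.4% of CONV AsiDNA B cells (97.6 to 98.9) and 97.1% of FLASH B cells (96.0 to 98.0). Ighd, by contrast, was nearly level across libraries, at 852, 904 and 894 adjusted CPM and above 0 in 77.8%, 80.6% and 79.3% of cells. Its log2 ratios of -0.09 and -0.07 lay close to the median of all genes tested, -0.11 in both comparisons, and turned to 0.03 and 0.04 when ratios were centred on that median. Ighm counts summed to 2.65 times those of Ighd in the CONV library, 3.87 times in CONV AsiDNA and 3.92 times with FLASH.

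**Figure D1:**
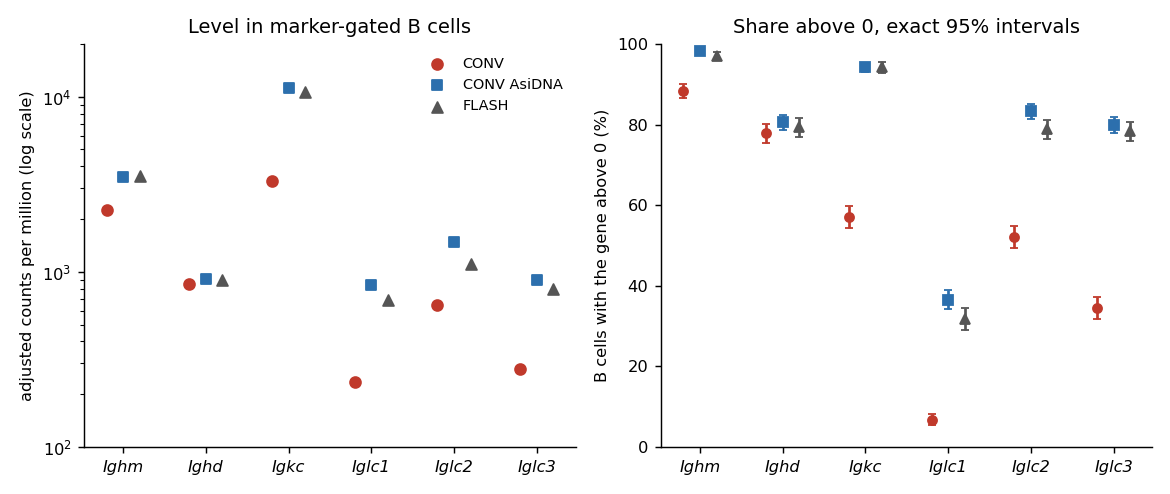
Level in adjusted counts per 1000000 on a log axis (left) and share of marker-gated B cells with the gene above 0, in percent with exact 95% intervals (right), for each member detected in B cells and each library of 1 mouse. CONV lies below both other libraries for Igkc, Iglc1, Iglc2, Iglc3 and Ighm, and the Ighd points lie close together at 852 to 904.

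In B cells 9068 genes were tested, chosen for 20 or more adjusted counts in sum. Of these, 248 were at least 2-fold lower in CONV than in CONV AsiDNA (2.73%), and 4 of the 6 members tested were among them. Another 47 were higher (0.518%), with no member among them. Iglc2 was at -0.99, and no longer among the lower genes, when Cd79a and Cd79b were left out of the gate. In the few B cells with no marker of another type, Iglc2 at -0.14 and Iglc3 at -0.55 were not among them either. The markers that this gate forbids include Ccr7, at 830, 1249 and 908 adjusted CPM in the B cells of CONV, CONV AsiDNA and FLASH. They also include Mzb1, at 255, 323 and 359, and Pecam1. Its few cells are therefore not shown to be a purer or typical set of B cells. Against FLASH 244 were lower (2.69%), 3 of the 6 members among them, and 77 were higher (0.849%), again with no member. Between CONV AsiDNA and FLASH 43 genes were lower in the former (0.474%) and 112 higher (1.24%), and no member was in either set. CONV was 2-fold or more below both libraries for 145 genes (1.6%), of which Igkc, Iglc1 and Iglc3 were members, and above both for 20 (0.221%). The number below both was 61 with no marker of another type allowed and 92 when ratios were centred on their median. With 1 added to adjusted CPM in place of 10, 672 genes lay below both and 147 above. Counted from the lowest ratio, Igkc held rank 45 against CONV AsiDNA and rank 39 against FLASH. Ighm held ranks 822 and 803, and Ighd ranks 4805 and 4988. The members were chosen on this contrast, and nothing is read from these counts.

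By log2 ratio, genes other than immunoglobulin genes lay farthest below both other libraries in CONV B cells. Fth1, the ferritin heavy chain, was listed at 0 in every CONV B cell and had 413 adjusted CPM in CONV AsiDNA and 690 in FLASH. Ctss, the cathepsin that trims the invariant chain of MHC class II, was likewise listed at 0 in CONV and above 0 in 46.6% and 51.1% of B cells in the other libraries. B2m, the light chain of MHC class I and less far below by ratio than Igkc, was above 0 in 39.7%, 73.4% and 73.1%. In all, 19 of the tested genes were detected in a share of B cells at least 20 points lower in CONV than in both other libraries, and 4 of them were the light chain members, while 5 genes, none of them a member, were at least 20 points higher. These other genes were picked out after their values were seen, and their part in the light chain result was not tested.

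Cell by cell, the median adjusted count of Igkc was 3 for CONV, against 31 for CONV AsiDNA and 28 for FLASH. At the 90th percentile it was 27, 60 and 55, and at the 99th percentile 55, 100 and 105. The ratio of CONV to CONV AsiDNA moved from 0.10 at the median to 0.55 at the 99th percentile, while the difference moved from -28 to -45. Against FLASH the ratio moved from 0.11 to 0.52 and the difference from -25 to -49.8. At the 25th percentile the values were 0, 19 and 17. For Ighm the ratio of CONV to CONV AsiDNA was 0.63 at the median, 0.67 at the 90th percentile and 0.80 at the 99th percentile. Against FLASH the Ighm ratios were 0.63, 0.70 and 0.79. For Ighd the values of all 3 libraries were the same at the median (2), the 75th (4), the 90th (6), the 95th (7) and the 99th percentile (10).

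**Figure D2:**
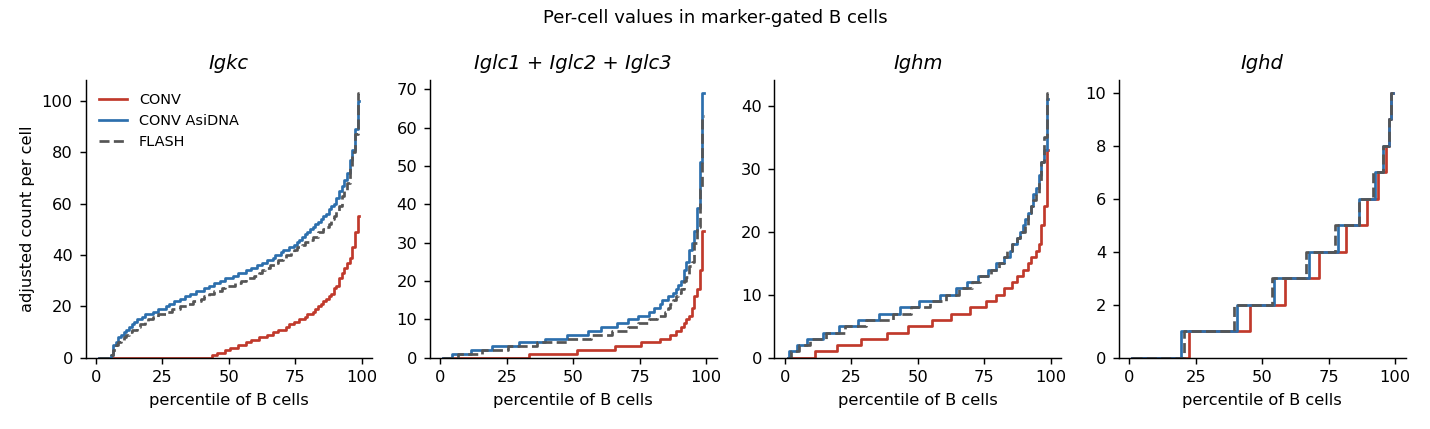
Adjusted count per cell (linear axis, its own range in each panel) against the percentile of marker-gated B cells for Igkc, the sum of Iglc1, Iglc2 and Iglc3, Ighm and Ighd, 1 line per library. The CONV line for Igkc stays at 0 until past the 40th percentile and remains below both others, while the Ighd lines run nearly together.

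Counting each chain as present above 0, most B cells of CONV AsiDNA (90.4%, 88.8 to 91.8) and FLASH (88.4%, 86.4 to 90.2) held both kappa and lambda transcripts, against 39.0% (36.4 to 41.8) in CONV. In these double-positive cells kappa was the main chain, with a median of 32 Igkc and 6 lambda counts in CONV AsiDNA and of 29 and 5 in FLASH. In CONV the medians were 13 and 3. Kappa only was found in 17.9%, 3.92% and 5.87% of the B cells of CONV, CONV AsiDNA and FLASH, and lambda only in 27.6%, 5.57% and 4.90%. After thinning to 1000 adjusted counts both chains were found in 22.9%, 75.9% and 68.5%, and kappa only in 28.7%, 17.3% and 24.3%. The share of light chain counts that were kappa, 74.1%, 77.7% and 80.4%, differed far less than the classes did.

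No light chain constant gene was above 0 in 201 of the 1301 CONV B cells (15.4%, 13.5 to 17.5), against 2 of 1580 in CONV AsiDNA (0.127%) and 9 of 1142 in FLASH (0.788%). After thinning to 1000 adjusted counts these shares were 25.98%, 0.380% and 1.49%. With a chain counted from 2 they were 23.6%, 0.190% and 0.788%. The median total of the 201 cells was 2939 adjusted counts, and depth before the adjustment is unknown. They had 1554 adjusted CPM of Ighm, 780 of Ighd and 3164 of Cd79a, and Ighm was above 0 in 86.1% of them. Kappa variable genes, which are transcribed as 1 molecule with Igkc, were above 0 in 19 of the 201 (9.45%, 5.79 to 14.4). By level, the class was the lowest of the 4 in CONV for Ighm, Ighd, Cd79a, Cd79b and Ms4a1, while heavy variable genes were above 0 in 24.9% of it, against 18.9% to 20.1%. In the other classes Ighm was between 1862 and 2692 adjusted CPM, Ighd between 828 and 910, and Cd79a, which is also a gate marker, between 3364 and 3532. Cd79b was at 804, against 873 to 1074, and Ms4a1 at 680, against 738 to 841. Cd79b and Ms4a1 are gate markers too, so the levels of these genes are not independent of the gate that chose the cells.

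**Figure D3:**
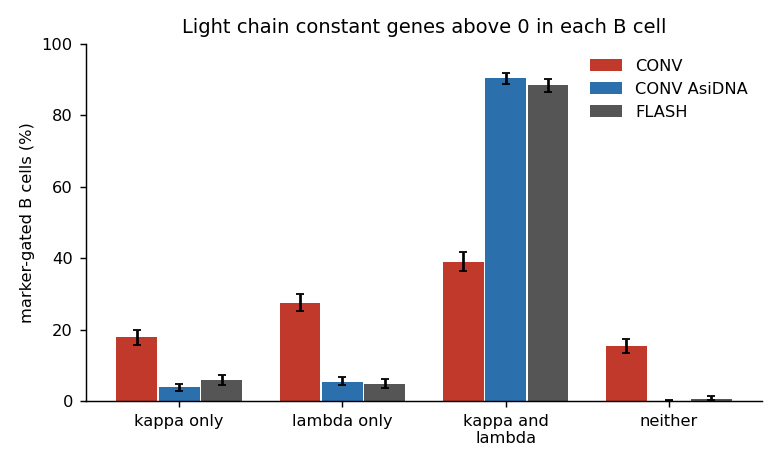
Share of marker-gated B cells in percent, with exact 95% intervals, that had Igkc only, a lambda constant gene only, both, or neither above 0 in each library. The share with both is 39.0% in CONV against 90.4% and 88.4%, and the share with neither is 15.4% against 0.127% and 0.788%.

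In the lambda-only class the median lambda count was 3 for CONV, against 26.5 for CONV AsiDNA and 25.5 for FLASH. A lambda variable gene was above 0 in 0.557% of these cells in CONV (0.0675 to 2.00), in 19.3% in CONV AsiDNA (11.7 to 29.1) and in 21.4% in FLASH (11.6 to 34.4). Lambda variable genes were rarely above 0 in any CONV class, at 0% to 0.984%, and Iglv1 and Iglv2 were listed at 0 in every CONV B cell, so their detection does not mark the class in CONV. At the median, lambda-only cells of CONV thus carried no more lambda than double-positive cells did. When a chain was counted only from 10% of the light chain counts of the cell, 27.9%, 64.1% and 58.2% of B cells held both, and the kappa-only shares of 28.9%, 29.7% and 35.3% no longer placed CONV highest.

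Cells led by a lambda gene with at least 10 counts were counted apart. In CONV 21 B cells were led by Iglc1, 46 by Iglc2 and 5 by Iglc3. The numbers were 82, 134 and 21 in CONV AsiDNA and 55, 57 and 12 in FLASH. In Iglc1-led cells the median of Igkc was 0, 1 and 0 counts in the 3 libraries. Igkc was listed at 0 in 17 of 21, 40 of 82 and 29 of 55 of them. Iglc2-led cells had a median Igkc of 0, 32.5 and 24 counts, with Igkc listed at 0 in 31 of 46, 27 of 134 and 17 of 57. Some cells of both groups thus held kappa in every library, and most Iglc2-led cells did so outside CONV.

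Variable genes gave a second readout of the same transcripts, with few counts. Iglv1 was above 0 in 19 of 82 Iglc1-led cells of CONV AsiDNA (23.2%, 14.6 to 33.8) and in 8 of 55 of FLASH (14.5%, 6.50 to 26.7), against 0.819% and 0.688% of cells with no lambda gene at 10 counts. For the same libraries in turn, it was above 0 in 14.3% and 16.7% of Iglc3-led cells and in 2.99% and 3.51% of Iglc2-led cells. Iglv2 was above 0 in 4 of 134 and 3 of 57 Iglc2-led cells, and in 0 of 82 and 2 of 55 Iglc1-led cells. In CONV Iglv1 was listed at 0 in every B cell, including the 21 led by Iglc1. Iglv3 was above 0 in 9, 31 and 28 B cells of CONV, CONV AsiDNA and FLASH. Summed over their genes, kappa variable transcripts had 67.0, 107 and 128 adjusted CPM, lambda variable transcripts 2.39, 18.6 and 16.2, and heavy variable transcripts 85.1, 88.8 and 107.

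Detection of kappa variable genes was counted by the level of Igkc. Among B cells with at least 10 Igkc counts a kappa variable gene was above 0 in 20.7%, 25.8% and 27.4% of cells, with CONV the lowest. In cells with Igkc listed at 0 it was above 0 in 9.82% of CONV (55 of 560, 7.48 to 12.6), 5.56% of CONV AsiDNA (5 of 90, 1.83 to 12.5) and 10.8% of FLASH (7 of 65, 4.44 to 20.9). In CONV, cells with 1 to 9 Igkc counts held a kappa variable gene in 18.3% of cases, close to the 20.7% of cells with more. The FLASH cells of that class were at 16.9% (9.31 to 27.1). For CONV AsiDNA the share was 3.70% (0.770 to 10.4).

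On the heavy chain side, Ighm and Ighd were both above 0 in 69.3%, 79.8% and 77.7% of B cells, again with CONV the lowest. Cells with Ighd alone made up 8.46% of CONV B cells and 0.759% and 1.66% of the others. Ighg2c was listed at 0 in all 19622 cells, and Igha and Jchain were listed at 0 in all B cells. Some B cells held another switched gene. Any of Ighg1, Ighg2b, Ighg2c, Ighg3 and Igha was above 0 in 34 B cells of CONV AsiDNA (2.15%) and 16 of FLASH (1.40%), and in none of CONV. Ighg2b, the constant gene of IgG2b, was above 0 in 21 B cells of CONV AsiDNA, at 31.1 adjusted CPM, and in 1 B cell of FLASH, which alone gave its 29.3 adjusted CPM. Ighg3, that of IgG3, was above 0 in 14 and 16 B cells, with 25 and 68 counts in sum.

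Apart from Iglc3 in plasmacytoid dendritic cells, the light chains were rarely above 0 outside the B gate, and most of the cells with Igkc there fell in no gate. Igkc was above 0 in 26 of 983 ungated cells of CONV (2.64%), 21 of 1268 of CONV AsiDNA (1.66%) and 12 of 1079 of FLASH (1.11%). Among the 9 types other than B cells, plasma cells and plasmacytoid dendritic cells, Igkc was above 0 in 1 of 4059 cells of CONV, 0 of 4070 of CONV AsiDNA and 0 of 3974 of FLASH, and Iglc3 was listed at 0 in all. T cells, which do not make immunoglobulin, had a median total of 3298, 3559 and 3504 adjusted counts, above that of the B cells, and Igkc was listed at 0 in every one. Ighm was above 0 in 31 T cells of CONV AsiDNA (3.15%) and 5 of FLASH. Of all Igkc counts 92.9% lay in gated B cells, as did 88.6% of those of Ighm, 97.7% of Ighd, 96.2% of Iglc1, 98.0% of Iglc2 and 94.9% of Iglc3. Iglc1 was above 0 in 0, 2 and 4 cells of these 9 types, and Iglc2 in 0, 1 and 1. In the plasma gate 3 cells held lambda beside a high Igkc, with 22 and 67 lambda counts in CONV and 1 in FLASH. The sources used here do not say how the adjustment made before deposit treated low counts, and its part in these zeros was not tested.

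Plasmacytoid dendritic cells, the interferon-producing cells of the dendritic lineage, were the exception among the other types. Iglc3 was above 0 in 3 of 10 gated cells of CONV (30.0%, 6.67 to 65.2), 26 of 34 of CONV AsiDNA (76.5%, 58.8 to 89.3) and 45 of 58 of FLASH (77.6%, 64.7 to 87.5). After thinning every cell to 1000 adjusted counts the shares were 20.0%, 55.9% and 48.3%. Its level there was 299, 918 and 800 adjusted CPM, against 279, 902 and 802 in B cells. The Iglc3 levels of the gate and of B cells were thus close in each library, and lowest in CONV in both. Igkc and Iglc1 were listed at 0 in all 102 cells, Iglc2 was above 0 in 2 cells of FLASH, and the B cell genes Cd79a and Ms4a1 were listed at 0 in all, while Cd79b was above 0 in 2 cells of CONV and 3 of FLASH. Ighm was above 0 in 20.0%, 20.6% and 82.8% of the gate, at 54.3, 107 and 869 adjusted CPM, so for Ighm it was FLASH that stood apart. Of the 8 markers of the gate, 6 were above 0 in a smaller share of cells in CONV than in both others, Bst2 was at 100% in each and Pacsin1 was higher in CONV, at 100% against 85.3% and 87.9%. Of the 6, Siglech, a surface receptor of these cells, was above 0 in 80.0% against all cells of the others, Klk1 in 20.0% against 85.3% and 72.4%, Cox6a2 in 30.0% against 82.4% and 86.2%, and Lair1 in 30.0% against 97.1% and 100%. Whether the 10 cells of CONV are of the same kind was not tested. The median totals were 3737, 3843.5 and 3753, and with 10 cells the intervals of CONV are wide.

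**Figure D4:**
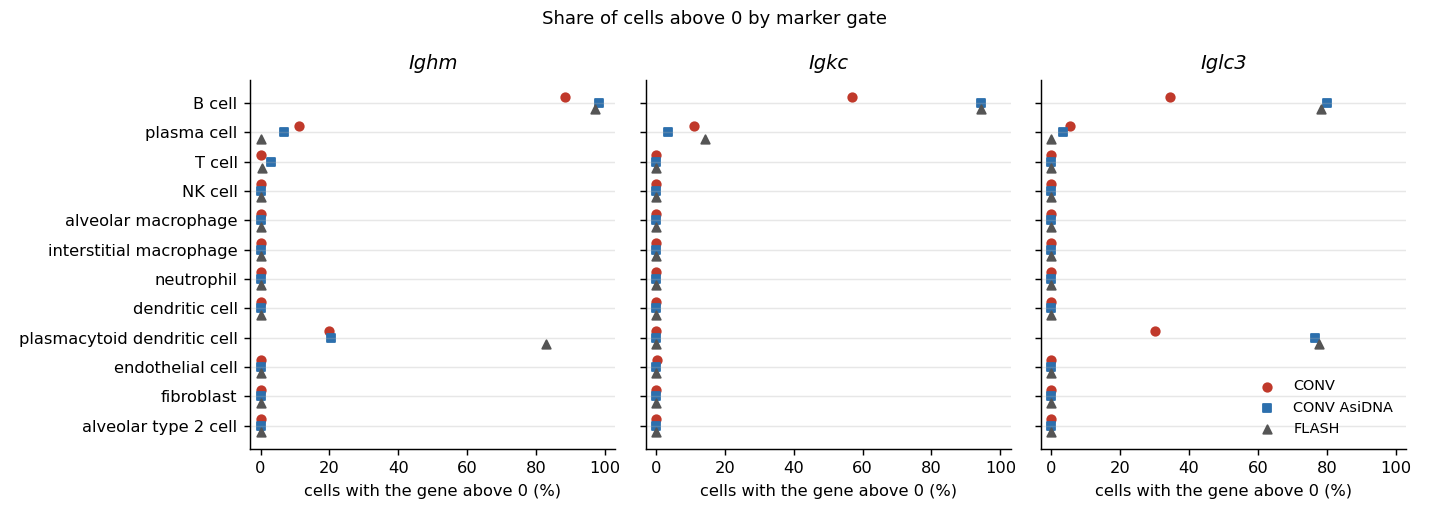
Share of cells in percent with Ighm, Igkc and Iglc3 above 0 in each of the 12 marker gates, 1 point per library. Igkc is near 0 outside the B and plasma gates, and Iglc3 is above 0 in 30.0%, 76.5% and 77.6% of the plasmacytoid dendritic cell gate.

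Cells very rich in immunoglobulin transcripts were few. Cells with at least 100 counts of 1 constant gene, or with Jchain above 0, numbered 52, namely 11 CONV, 23 CONV AsiDNA and 18 FLASH cells, a threshold set after the values were seen. Of the 52, 37 lay in the B gate, 6 in the plasma gate, 1 in the endothelial gate and 8 in none. Those of the B gate had 4 to 8 B cell markers and 0 to 4 plasma cell markers above 0. Xbp1, a factor of secreting cells, was listed at 0 in each, while Mzb1, a chaperone of antibody assembly, was above 0 in most and reached 46. The plasma gate itself mostly held other cells, since 7 of its 61 cells had any constant gene above 0. It is therefore named only by its markers.

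Jchain was above 0 in 8 of the 19622 cells, of which 4 were from CONV and 2 from each of the others, and in none of the 37 rich cells of the B gate. The FLASH cells were the only ones with Igha. One held 1413 Igha, 414 Igkc and 39 Jchain counts, 59.8% of its total, and the other held 410 Igha, 803 Igkc and 17 Jchain counts. In CONV AsiDNA a cell with 979 Igkc and 47 Jchain counts used Ighg1, the gene of IgG1, at 326 counts. In CONV the Jchain cells were of the Ighm class or had no heavy constant gene above 0, and the one in the endothelial gate held 637 Ighm, 824 Igkc and 20 Jchain counts together with 5 endothelial markers. A pair of Jchain cells had no light chain, with 1297 Ighm and 178 Jchain counts in CONV and 796 Ighm and 86 Jchain counts in CONV AsiDNA. The cell with the largest constant sum, 2202 counts or 55.1% of its total, was in CONV and held 568 Ighm and 1612 Igkc counts, with Jchain listed at 0. High kappa output was thus present in single cells of every library, CONV included. Leaving out the B cells with 100 or more counts of a constant gene gave Igkc log2 ratios of -1.83 and -1.66 in the order CONV AsiDNA, FLASH.

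**Figure D5:**
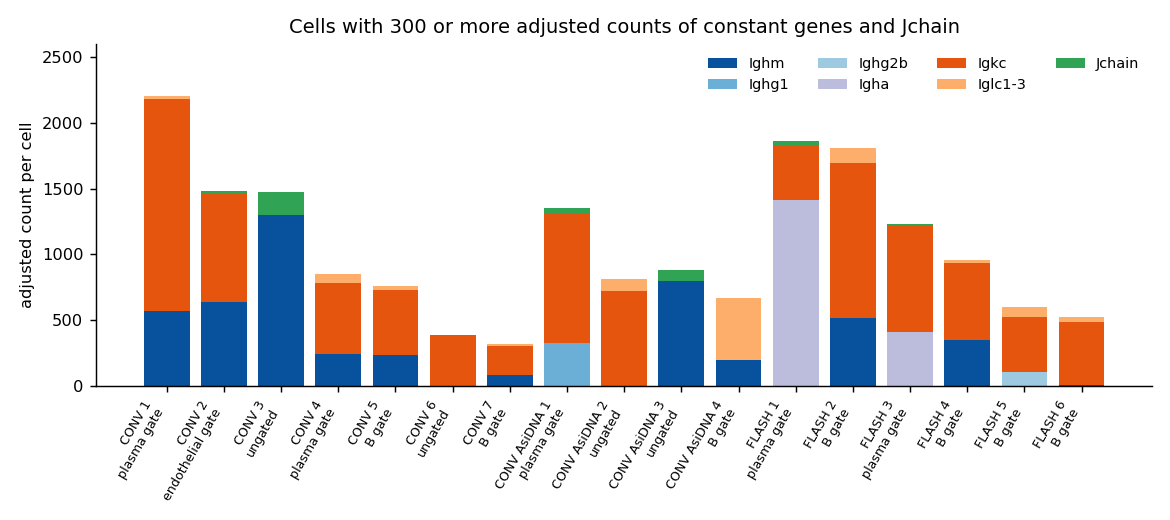
Adjusted counts of constant genes and Jchain in the 17 cells with a sum of at least 300, stacked by gene, each labelled with its library, its number and its marker gate. Igha is seen in 2 FLASH cells, Ighg1 in 1 CONV AsiDNA cell, and 2 cells with Ighm and Jchain show no light chain.

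Genes of the receptor complex and of its signalling pathway are given by list, beside the 2.73% and 2.69% of all tested genes that were at least 2-fold lower in CONV than in CONV AsiDNA and FLASH. Of 8 receptor complex and coreceptor genes tested, 1 was at least 2-fold lower in CONV than in either library, with median log2 ratios of -0.28 and -0.30 to CONV AsiDNA and FLASH. It was Fcgr2b, the inhibitory Fc receptor, at 21.8, 61.1 and 64.0 adjusted CPM. Cd79a was level at 3405, 3449 and 3294, while its partner Cd79b was at 988, 1725 and 1711. Of 12 proximal signalling genes 1 was lower in both comparisons, Ptpn6, the phosphatase SHP-1, at 129, 300 and 273 adjusted CPM, and the medians were -0.13 and -0.26.

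None of 10 transcription factors of B cell identity reached 2-fold in either direction, with medians of -0.08 and -0.33. Spib, an Ets factor, had 119, 213 and 198 adjusted CPM, and Bach2, a repressor of plasma cell fate, had 229, 181 and 198. None of 7 genes of the transitional and follicular state reached 2-fold, with medians of -0.38 and -0.36. Ms4a1, which encodes CD20, had 781, 1244 and 1231 adjusted CPM. None of 6 genes of the marginal zone and B1 state did (medians -0.30 and -0.58), and none of 5 genes of switching and the germinal centre (0.03 and -0.22). Of 11 plasma cell secretion genes, 1 was lower in CONV than in CONV AsiDNA, the chaperone Hsp90b1 at 112 against 233 adjusted CPM, and none against FLASH (medians -0.26 and -0.31). Of the 3 other constant genes tested, 1 was lower than in CONV AsiDNA and 2 than in FLASH.

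Across 33 groups of library and type with at least 20 cells, the non-immunoglobulin genes with the level pattern nearest to Igkc on the log2 scale were Vpreb3, a surrogate light chain relative (Pearson r 0.95), 1810046K07Rik (0.94), Pou2af1, the octamer coactivator of B cells (0.92), Fcrl5 (0.92) and Klhl14 (0.91). Among the members r with Igkc was 0.87 for Ighm, 0.85 for Iglc1, 0.79 for Iglc2, 0.75 for Ighd and 0.65 for Iglc3. These values describe groups that share libraries and are mostly at 0 outside B cells. Jchain was above 0 in 2 of the 33 groups only, and the genes nearest to it, Deup1, 4632404M16Rik, Pgbd1, Gm15475 and Gm16537, rest on those.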

How the data were processed

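Dissociated lung cells were profiled with the 10x Genomics droplet system. The submitters' processing notes name Cell Ranger 6.0.0 and mm10, and the study names R and Seurat. The authors deposited, per library, natural log (ln) values, ln(1 + a whole number), per gene and cell. These were converted back, all within 1e-06 of a whole number (adjusted counts). Totals per cell lay between 1432 and 8462. The sources used here do not describe the adjustment behind them. The analysis had been planned for raw counts. No count model was used. The 12 per-sample columns of 4 further tables, keyed by other gene identifiers, were not used, nor were columns of the authors' own comparisons.

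A cell with at least 200 genes above 0 took the type with the most of its 8 markers above 0, if at least 3 were and every other type had at least 2 fewer. Doublets were not called. Log2 ratios used adjusted CPM plus 10, which understates changes of low genes. A ratio of 2-fold or more was counted as lower or higher. With 1 mouse per condition no p-value was computed. The genes named by rule were the 9 members, up to 4 examples of each list (the extremes by ratio) and the 5 genes most like Igkc and Jchain. Other genes named, such as variable genes, type markers and Fth1, Ctss and B2m, fall outside this rule and were chosen with values known. The members and lists were chosen with earlier results of these data known. Alternatives changed the gate, the prior, the scaling, the weight of cells, the depth, the minimum sum and the light chain call. The ratios were tested on simulated data, but no outcome of that is given here and nothing is drawn from it. Python 3.11.15, numpy 2.4.6, scipy 1.17.1, pandas 2.3.3, Biopython and matplotlib 3.10.9 were used.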

Additional observations from a re-analysis of the deposited data

How the results depend on the processing

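The log2 ratio of Igkc lay between -1.93 and -1.65 over CONV AsiDNA and between -1.83 and -1.57 over FLASH under all 13 alternatives. The share of B cells with both chains was lower, and that with neither higher, in CONV than in both other libraries under each alternative run. The share of B cells with both chains was 22.9%, 75.9% and 68.5% (CONV, CONV AsiDNA, FLASH) after thinning to 1000 adjusted counts, 26.8%, 82.7% and 79.4% with a chain counted from 2, and 27.9%, 64.1% and 58.2% with a chain counted from 10% of light chain counts. Under the last, kappa-only cells were 28.9%, 29.7% and 35.3%, so that CONV was no longer the highest, and after thinning they were 28.7%, 17.3% and 24.3%. The share of the plasmacytoid gate with Iglc3 was 20.0%, 55.9% and 48.3% after thinning. The share with neither in CONV was 25.98% after thinning and 23.6% with a chain counted from 2. Without Cd79a and Cd79b in the gate 90.5% of FLASH cells had both, and with a gate of 4 markers 0.361% had neither. Allowing no marker of another type left 41, 11 and 25 B cells, of which 53.7% and 72.7% had both in CONV and CONV AsiDNA and 0% had neither in CONV AsiDNA and in FLASH. Kappa-only cells were then 12.2%, 27.3% and 12%, and Iglc3 was above 0 in 0% of the plasmacytoid gate of CONV. That gate also dropped B cells with Ccr7, Mzb1 or Pecam1 above 0, genes that the main B gate held. Its cells are therefore not shown to be a purer or typical set of B cells. Without Cd79a and Cd79b in the gate the ratio of Iglc2 over CONV AsiDNA was -0.99. In the few cells with no marker of another type the log2 ratios over CONV AsiDNA and FLASH were -0.05 and -0.01 for Ighm, -4.62 and -2.44 for Iglc1, -0.14 and -0.14 for Iglc2, and -0.55 and -1.13 for Iglc3, so Iglc2 and Iglc3 were no longer 2-fold lower than in CONV AsiDNA. Genes lower in CONV than in both numbered 61 under that gate, 672 with a prior of 1 and 92 when centred on the median ratio (added after the data were seen), and genes higher numbered 147 with a prior of 1. No paired analysis was possible because each condition has 1 sample and no test was run. Depth after adjustment was similar across libraries, and sequencing depth before it is unknown.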
